A study of Mus musculus with 9 samples.

Results

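The immediate early and heat-shock genes described here are 38 mouse genes taken by symbol from the 55341 genes counted in each library, 25 of them immediate early genes and 13 chaperone genes or their regulators. All 38 symbols were found in the count files. Of these, 36 had enough counts to be tested among the 16250 genes that passed a filter on low counts: 23 immediate early and 13 heat-shock members. The 2 left untested were Fosl1, with 1 count in 1 library and 0 in the other 8, and Egr3, with 0 to 7 counts per library.

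RNA was sequenced from small-intestinal crypts. The donors were C57BL/6 males, 8 to 12 weeks old, labelled wild type or knockout for Pcgf6, the gene of the Polycomb subunit PCGF6. The 4 groups were AhCre wild type (WT, n = 2) and AhCre Pcgf6 knockout (KO, n = 2), both given beta-naphthoflavone (BNF), and Villin-CreERT2 WT (n = 3) and Villin-CreERT2 Pcgf6 KO (n = 2), both given tamoxifen (TAM) per their titles. For the Villin samples a description line gives BNF in place of TAM. Titles and treatment labels give 15 days since the agent, whereas a second description line and the design text give 7 days. AhCre makes the recombinase from a promoter that responds to aryl hydrocarbon receptor agonists such as BNF, and Villin-CreERT2 from the villin promoter of intestinal epithelium in a form that tamoxifen activates. Every group, WT included, was thus exposed to its inducing agent, and the labels do not give which Cre or floxed alleles the WT mice carried or whether each library came from a separate animal. The p-values therefore measure the spread between these libraries, which may be technical.

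Immediate early genes are transcribed within minutes of a growth factor, cytokine or stress signal without the need for new protein synthesis, because the kinases and transcription factors that act on them are already present. Many encode transcription factors, and others, such as the DUSP phosphatases and the messenger-decay protein of Zfp36, end the response. Heat-shock genes encode chaperones that fold and refold proteins, and the stress-inducible ones are switched on by the factor HSF1 when unfolded proteins accumulate. Both sets are known to respond to the handling and dissociation of fresh tissue such as intestinal crypts, besides their roles in living epithelium.

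Depth differed between drivers. Total counts were 9263993 to 12377921 in the AhCre libraries and 6455098 to 8339149 in the Villin libraries, with counts in 33791 to 38835 and 22058 to 29750 genes. Mitochondrially encoded genes took 2.07% to 3.04% of counts in AhCre and 3.41% to 4.92% in Villin. Pcgf6 was lower in each KO library than in each WT library of its driver (counts of 89 and 68 against 219 and 136 in AhCre, and of 15 and 16 against 60, 99 and 49 in Villin). With counts scaled for library size, its log2 fold change was -0.89 in AhCre, not called by edgeR. In Villin it was -1.99 (edgeR, adjusted p = 0.0220). Some Pcgf6 messenger was thus still counted in every KO library. Replicates lay closer together in AhCre than in Villin, with chi-square values per degree of freedom of 6.48 and 10.8 against 43.3 to 63.6, so no pair was alike within counting noise. The Villin KO 1 library stood apart: its summed level of 20 absorptive enterocyte markers was 85904 CPM (read counts scaled to a common library size by the TMM method) and of 21 tuft cell markers 4283 CPM, against 54827 and 723 CPM in Villin KO 2. Calls in the Villin comparison are therefore also given without it.

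Promoter sequences are shown for members whose messenger levels are described in most detail and that carry a recognisable element. They are RefSeq windows around the annotated start on GRCm38.p6, each 300 bases long and printed 5′ to 3′ along the gene. The first pair are the stress-inducible HSP70 genes, which lie next to each other on chromosome 17 and whose windows are nearly the same. Capitals mark a heat-shock element of 2 units (GAANNTTC, at -104 to -97 from the start in both), the kind of repeat that HSF1 binds. In the Hspe1 window the capitals mark overlapping 3-unit elements (a further unit following the pair, read on both strands, at -89 to -72). In the Fos window they mark the TATA box (TATAA, at -33 to -29), and in the Btg2 window a cyclic AMP response element (TGACGTCA, at -166 to -159).
Hspa1a (chr17:34972107-34972406, minus strand): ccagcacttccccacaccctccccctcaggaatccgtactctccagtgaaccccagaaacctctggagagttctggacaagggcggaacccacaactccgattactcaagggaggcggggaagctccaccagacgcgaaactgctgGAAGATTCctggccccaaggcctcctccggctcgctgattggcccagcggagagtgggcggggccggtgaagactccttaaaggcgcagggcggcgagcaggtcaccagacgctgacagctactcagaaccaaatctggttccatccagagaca
Hspa1b (chr17:34959189-34959488, minus strand): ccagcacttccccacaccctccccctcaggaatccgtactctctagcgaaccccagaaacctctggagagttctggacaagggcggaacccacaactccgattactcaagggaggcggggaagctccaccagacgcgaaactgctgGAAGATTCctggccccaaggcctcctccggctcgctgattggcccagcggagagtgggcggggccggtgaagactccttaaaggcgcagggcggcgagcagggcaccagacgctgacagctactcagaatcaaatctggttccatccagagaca
Hspe1 (chr1:55087898-55088197, plus strand): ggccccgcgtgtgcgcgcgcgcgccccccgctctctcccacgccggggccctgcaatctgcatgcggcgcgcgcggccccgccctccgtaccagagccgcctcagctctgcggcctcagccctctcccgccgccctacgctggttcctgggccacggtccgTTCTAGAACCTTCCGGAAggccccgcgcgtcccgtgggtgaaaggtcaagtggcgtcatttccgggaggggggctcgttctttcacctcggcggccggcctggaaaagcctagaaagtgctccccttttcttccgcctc
Fos (chr12:85473640-85473939, plus strand): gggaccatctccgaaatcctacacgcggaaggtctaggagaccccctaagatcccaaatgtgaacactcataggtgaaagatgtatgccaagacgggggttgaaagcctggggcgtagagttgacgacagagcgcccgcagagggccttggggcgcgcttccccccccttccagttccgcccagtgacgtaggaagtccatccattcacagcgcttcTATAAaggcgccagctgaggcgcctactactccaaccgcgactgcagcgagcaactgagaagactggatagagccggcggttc
Btg2 (chr1:134079106-134079405, minus strand): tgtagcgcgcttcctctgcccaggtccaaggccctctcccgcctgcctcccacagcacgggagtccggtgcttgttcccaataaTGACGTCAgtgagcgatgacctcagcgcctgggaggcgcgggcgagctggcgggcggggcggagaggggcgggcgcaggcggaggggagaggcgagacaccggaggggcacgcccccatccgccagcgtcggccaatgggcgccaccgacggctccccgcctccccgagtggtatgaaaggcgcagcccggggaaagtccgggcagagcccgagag

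Windows were held for 30 of the 38 members, 39 windows in all. A member was counted if any of its windows held the element, whereas the share over all windows is per window. On either strand, the 2-unit heat-shock element in either order (GAANNTTC or TTCNNGAA) was present for 11 of these 30 members. That was 12 of their 39 windows, against 15.1% of all 32851 windows. Its holders included the heat-shock members Hspa1a, Hspa1b, Hsph1, Hspd1, Hspe1, Hspb1, Dnaja1 and Bag3, and the immediate early members Jun, Fosl2 and Egr2. The 3-unit form, which contains the 2-unit forms, was found for Hspd1, Hspe1 and Hsph1 and in 0.603% of all windows. TGACGTCA was present for Btg2 and Dusp1 and in 1.79% of windows. The CArG box, the element of serum response factor, was present for Dusp5, Egr2 and Zfp36 and in 1.63%. The AP-1 site TGANTCA was found for Bag3 alone among members and in 7.81% of windows. TATAA was found for 10 members, in 10 of the 39 member windows, against 24.9% of all windows. Hspa1a and Hspa1b were identical at 296 of 300 window positions (98.67%) and over 85.33% of their aligned transcripts, with identical runs of up to 638 bases. How reads shared by this pair were counted is not given in the sources used here, so the values of each are uncertain and their sum is given as well.

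The members spanned a wide range of levels. Per kilobase of annotated exon, averaged over the 9 libraries, the level was 333 CPM per kb for Hsp90ab1, the constitutive cytosolic HSP90. Next came Hspe1 (201 CPM per kb) and Hspd1 (116), the partners of the mitochondrial chaperonin, with Hspa8 (155), the constitutive HSP70, between them. Of the immediate early genes Fos (63.6 CPM per kb) and Klf6 (63.0) were highest, followed by Junb (59.0) and Jun (42.3). The inducible Hspa1a and Hspa1b were near the bottom of the list at 0.39 and 0.62 CPM per kb, as were Egr2 (0.26), Fosb (0.35) and Klf2 (0.43).

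In the Villin line, KO crypts had more messenger of 6 of the 36 tested members than WT crypts, and no member was called lower (edgeR quasi-likelihood test over all 16250 genes, Benjamini-Hochberg adjusted p under 0.05). Over all genes tested 6.21% were called, 3.33% higher and 2.88% lower. The 6 were Fos, Atf3, Dusp6, Klf6, Btg2 and Hspa1a, which are 5 of 23 immediate early members and 1 of 13 heat-shock members. At an unadjusted p under 0.05, 13 members were higher and 1 lower, against 10.7% and 15.4% of all genes. Both KO libraries lay above all 3 WT libraries for 9 members and below them for 2, against 14.5% and 19.8% of all genes. Immediate early members had a median log2 fold change of 0.77 and heat-shock members of 0.45, against -0.18 over all genes tested.

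**Figure D1:**
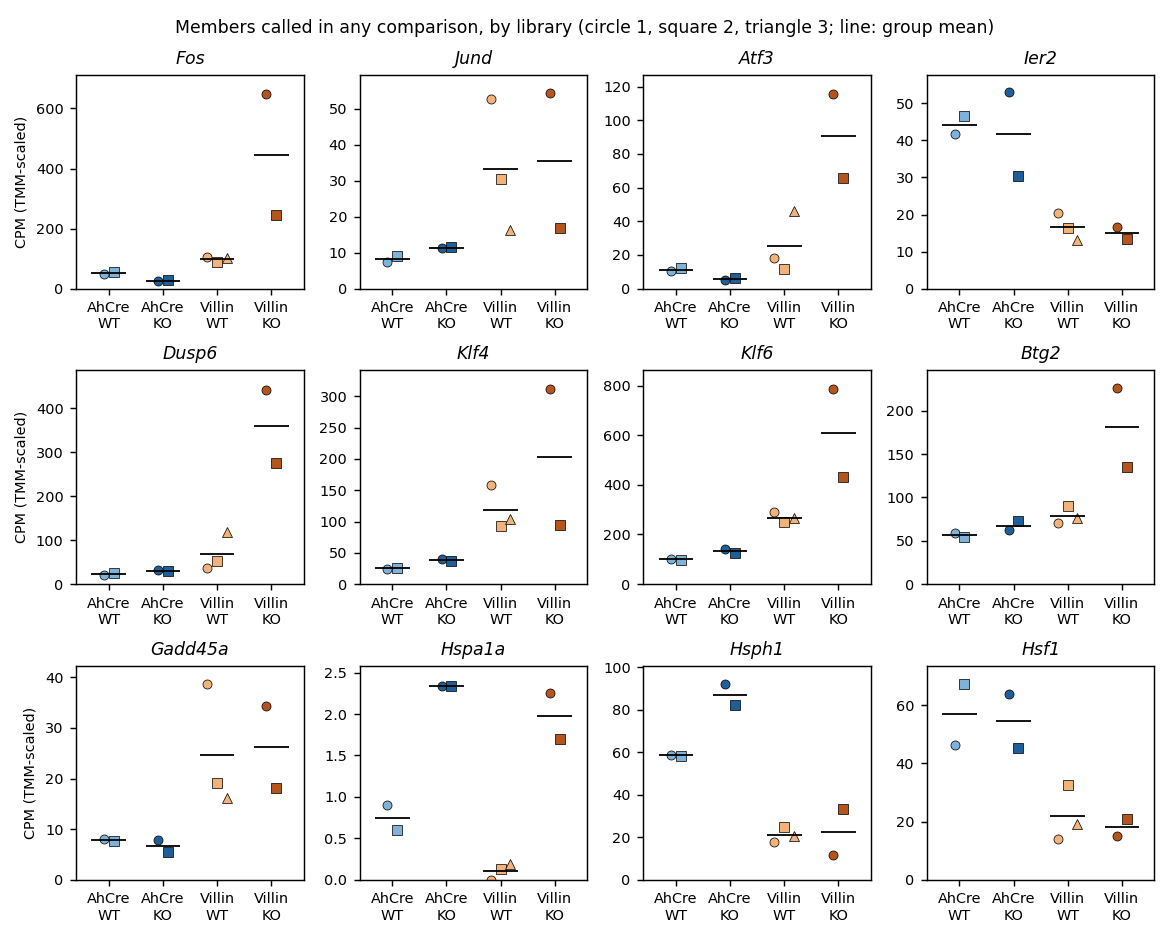
Level in CPM (linear axes, TMM-scaled) of the 12 members called in any comparison, by group. Each point is a library (circle 1, square 2, triangle 3) and each line a group mean. Fos is at 648 and 245 CPM in Villin KO against 89.3 to 106 in Villin WT, and at 26.03 and 27.2 in AhCre KO against 48.9 and 55.3 in AhCre WT.

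Fos, the partner of Jun proteins in the AP-1 factor (chr12:85473890-85477273, GRCm38), was at 106, 89.3 and 100 CPM in Villin WT and at 648 and 245 CPM in Villin KO. Both KO libraries were above every WT library, and the KO libraries themselves differed by more than the WT libraries did. The log2 fold change of Fos was 2.18 (SE 0.37, adjusted p = 0.00999). Atf3, a stress-induced factor of the ATF family (chr1:191170296-191218039), was at 18.0, 11.7 and 46.2 CPM in Villin WT and at 116 and 65.7 CPM in Villin KO, and its log2 fold change was 1.85 (SE 0.48, adjusted p = 0.0438). The groups did not overlap for Atf3, although Villin WT 3 lay closer to Villin KO 2 than to the other WT libraries.

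Other AP-1 members were not called. Junb, an AP-1 partner that restrains growth in many tissues, was at 103, 136 and 146 CPM in Villin WT and at 373 and 142 CPM in Villin KO, a log2 fold change of 1.00 (SE 0.37, adjusted p = 0.12). Only Villin KO 1 lay above the WT range. Jun, Fosl2 and Fosb had log2 fold changes of 0.74, 0.93 and 1.47 (adjusted p = 0.29, 0.13 and 0.10), and for Jun and Fosl2 the value of Villin KO 2 was likewise within or near the WT range (107 against 108 to 181 CPM for Jun, 65.1 against 53.6 to 67.5 CPM for Fosl2). Jund, which is less inducible than its relatives, was at 0.10 (adjusted p = 0.92), with 52.7, 30.5 and 16.2 CPM in Villin WT and 54.3 and 16.8 CPM in Villin KO.

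The EGR and NR4A factors, often the first genes to respond to a growth signal, were low and none was called. Egr1 was at 8.63, 6.16 and 6.17 CPM in Villin WT and at 6.15 and 3.55 CPM in Villin KO, with a log2 fold change of -0.54 (SE 0.42, adjusted p = 0.44). Its KO libraries were at or below the lowest WT library, in contrast to the position of Fos. Nr4a1, an orphan nuclear receptor, was at 0.72 to 1.16 CPM in Villin WT and at 0.61 and 2.62 CPM in Villin KO (0.93, adjusted p = 0.40). Egr2 was between 0.38 and 1.54 CPM in these libraries, and Egr3 had 11 counts over the 3 WT and 2 over the 2 KO libraries.

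The group of feedback and messenger decay genes also held Ier2, Ier3 and Ier5. Its largest change was in Dusp6, the phosphatase that inactivates ERK kinases in the cytoplasm (chr10:99263231-99267489). It was at 36.8, 53.5 and 118 CPM in Villin WT and at 442 and 275 CPM in Villin KO, a rise of 2.37 in log2 units (SE 0.43, adjusted p = 0.0135). Zfp36, which speeds the decay of AU-rich messengers, was at 63.4, 72.6 and 75.5 CPM in Villin WT and at 181 and 65.7 CPM in Villin KO (0.80, SE 0.37, adjusted p = 0.19). Again only Villin KO 1 was above the WT range. Ier5 moved the other way without passing the edgeR test, though the DESeq2 Wald test and the fit without a low-count filter called it lower. It was at 21.4, 11.0 and 18.1 CPM in Villin WT and at 7.58 and 2.93 CPM in Villin KO. Its log2 fold change was -1.69 (edgeR, adjusted p = 0.062). Ier2, Ier3, Dusp1 and Dusp5 had log2 fold changes of -0.15, 0.15, 1.37 and 0.27, each with an adjusted p of 0.15 or more.

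Of the KLF and growth-arrest genes, Klf6 and Btg2 rose. Klf6, a zinc finger factor of the Krüppel-like family, was at 289, 250 and 265 CPM in Villin WT and at 787 and 431 CPM in Villin KO (1.18, SE 0.31, adjusted p = 0.0434). Btg2, which slows cell division and shortens messenger tails, was at 70.1, 90.3 and 76.3 CPM in Villin WT and at 227 and 135 CPM in Villin KO (1.195, SE 0.30, adjusted p = 0.0389). For both genes the WT libraries were close together and both KO libraries lay above them. Klf4, a factor of post-mitotic epithelium, was at 158, 93.0 and 105 CPM in Villin WT and at 311 and 94.1 CPM in Villin KO (0.77, adjusted p = 0.27), so that only Villin KO 1 was above the WT range. Gadd45a and Gadd45b, which respond to DNA damage, were at 0.09 and -0.03 on the log2 scale (adjusted p = 0.92 and 0.96).

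**Figure D2:**
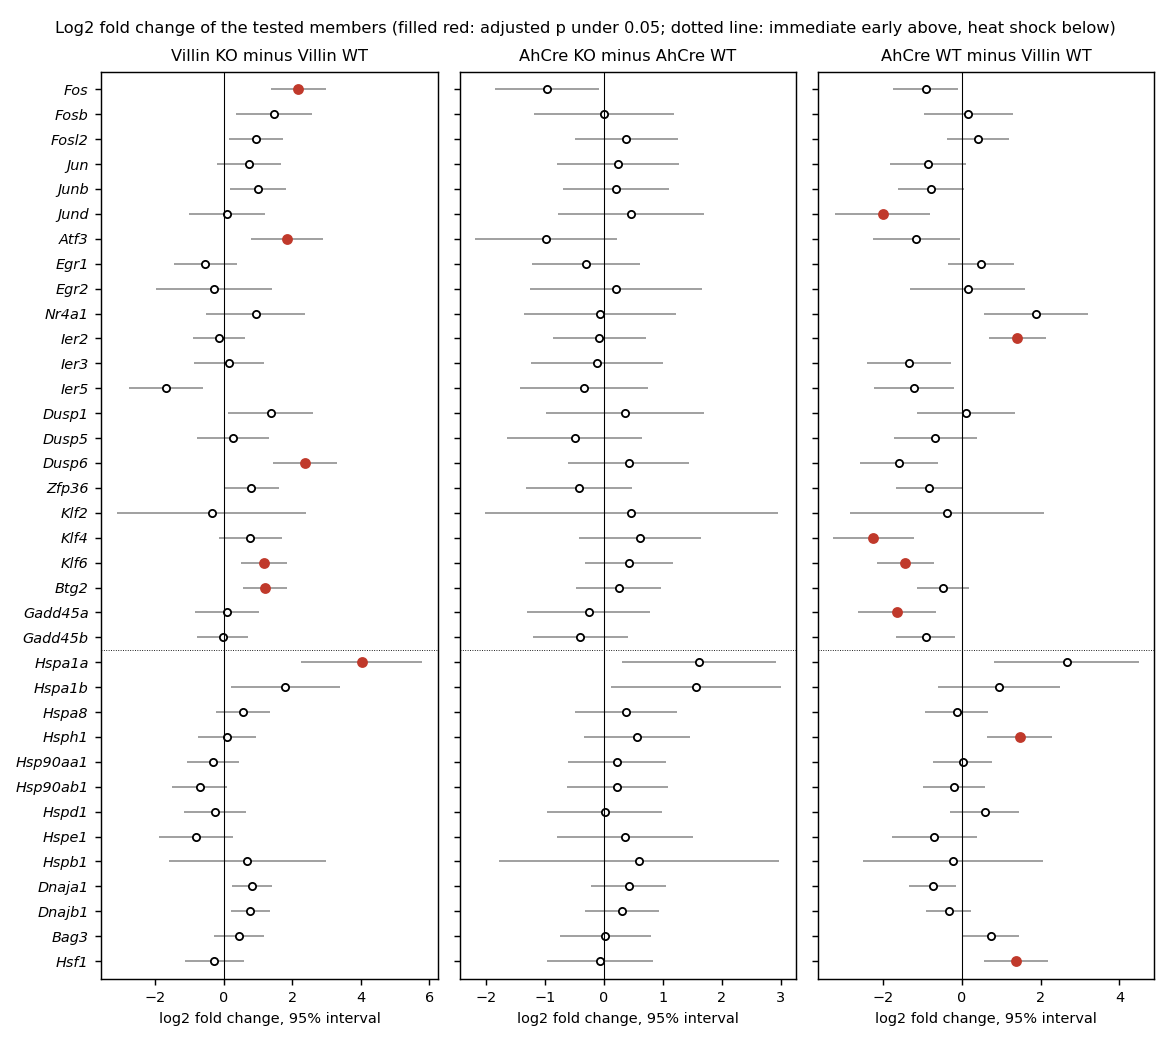
Log2 fold change (points) and 95% interval (lines) of the 36 tested members in Villin KO against Villin WT, AhCre KO against AhCre WT and AhCre WT against Villin WT. Immediate early members stand above the dotted line and heat-shock members below it, and red marks an adjusted p under 0.05. The first panel has 6 red points, all to the right of 0, the second has none, and the third has 3 to the right and 4 to the left.

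Hspa1a, an inducible HSP70 (chr17:34969190-34972156), was the heat-shock member that rose in Villin KO, and it did so at very low counts. Villin WT had 0, 1 and 1 counts and Villin KO 11 and 11, an 18.0-fold higher scaled level (95% interval 4.41 to 158, for counting error alone). The fitted log2 fold change was 4.03 (SE 0.82, adjusted p = 0.0194). Hspa1b had 2, 3 and 6 counts in the WT libraries and 17 and 6 in the KO libraries (1.79, adjusted p = 0.15). For Hspa1a and Hspa1b summed, the levels were 0.36, 0.51 and 1.35 CPM in Villin WT and 5.74 and 2.62 CPM in Villin KO, without overlap. The summed gene rose by 2.50 on the log2 scale (adjusted p = 0.0373), and the ratio of summed counts was 5.65 (3.00 to 11.4). Without Villin KO 1 the summed gene was at 1.87 on the log2 scale and not called (adjusted p = 0.174). At 3 counts, the level that a count of 0 allows was 0.385 to 0.615 CPM in the Villin libraries.

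The abundant chaperones did not pass the test in Villin, and those of the HSP90 and chaperonin groups had their lowest value of all 9 libraries in Villin KO 1. Hsp90ab1 was at 1388, 1141 and 848 CPM in Villin WT and at 459 and 922 CPM in Villin KO (-0.71, SE 0.37, adjusted p = 0.24). Hsp90aa1, the inducible HSP90, was at 242, 153 and 121 CPM in Villin WT and at 111 and 165 CPM in Villin KO (-0.31, adjusted p = 0.60). Hspd1 was at 212, 357 and 204 CPM in Villin WT and at 116 and 317 CPM in Villin KO (-0.25), and its partner Hspe1 at 341, 173 and 637 against 133 and 305 CPM (-0.81). For these 4 genes and for Hsph1, the HSP110 exchange factor (17.8, 24.8 and 20.8 against 11.5 and 33.2 CPM), Villin KO 1 was below and Villin KO 2 within or above the WT range. Hspa8 was at 393, 608 and 774 CPM in Villin WT and at 614 and 1120 CPM in Villin KO (0.55, SE 0.36, adjusted p = 0.35).

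The co-chaperones Dnaja1 and Dnajb1, J-domain proteins that hand clients to HSP70, were separated between the groups but missed the edgeR threshold. The DESeq2 Wald test called both higher. Dnaja1 was at 133, 122 and 126 CPM in Villin WT and at 217 and 234 CPM in Villin KO (0.83, SE 0.27, adjusted p = 0.079). Dnajb1 was at 73.0, 61.3 and 72.4 CPM in Villin WT and at 118 CPM in both Villin KO libraries (0.77, SE 0.26, adjusted p = 0.091). Here, unlike for the AP-1 genes, the KO libraries had nearly the same level. Bag3, a co-chaperone of HSP70, and Hsf1 were at 0.45 and -0.28 on the log2 scale, and Hspb1, a small heat-shock protein, was between 0 and 5.75 CPM in the Villin libraries.

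The excess of immediate early messengers in Villin KO lay mostly in 1 library. Villin KO 1 was the highest of the 9 libraries for 15 of 23 immediate early members (65.2%), against 18.2% of all genes tested, and for 1 of 13 heat-shock members. Summed over the 8 AP-1 and ATF genes, the level was 466 to 518 CPM in Villin WT, 645 CPM in Villin KO 2 and 1719 CPM in Villin KO 1. Without Villin KO 1 no member was called (10 at an unadjusted p under 0.05), where 0.405% of all genes were called in place of 6.21%. The median over immediate early members was then -0.08 in place of 0.77, while that over heat-shock members was 0.62 in place of 0.45. The log2 fold changes without it were 1.33 for Fos (adjusted p = 0.0712), 2.005 for Dusp6 (0.0730), 1.41 for Atf3 (0.197), 3.84 for Hspa1a (0.0828), 0.70 for Klf6 (0.255) and 0.79 for Btg2 (0.199), all in the same direction as before. Without Villin KO 2, 13 members were called, all higher, where 11% of all genes were called.

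**Figure D3:**
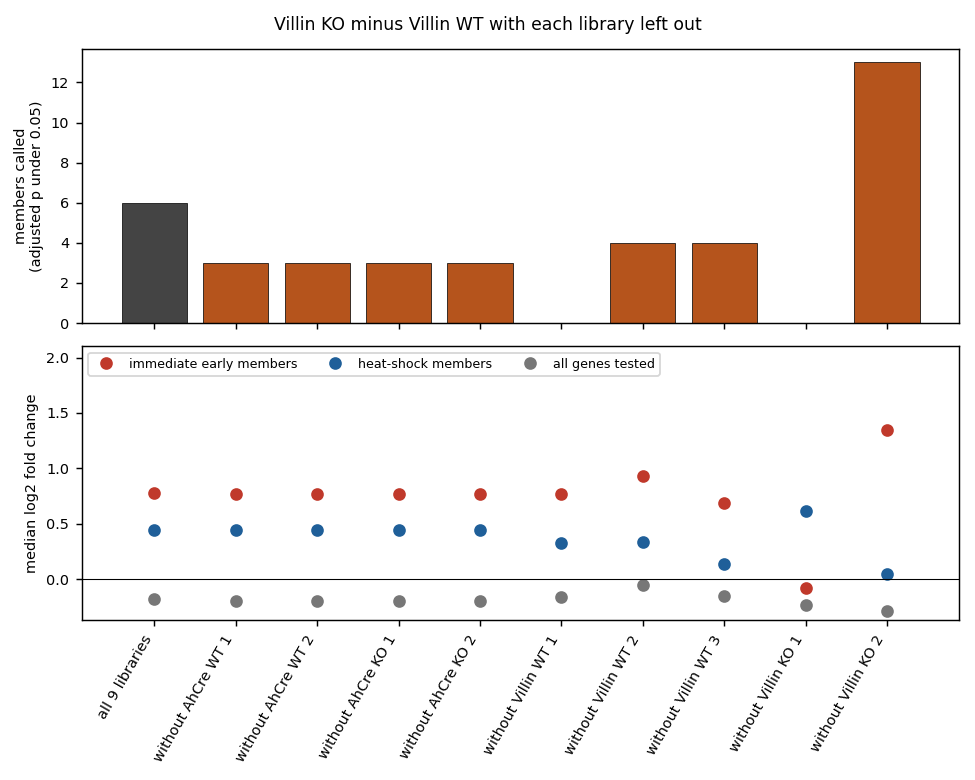
Villin KO against Villin WT with all 9 libraries and with each library left out: the number of members called (bars) and the median log2 fold change among immediate early members, the heat-shock members and all genes tested (points). The count is 6 with all libraries, 0 without Villin WT 1 or Villin KO 1 and 13 without Villin KO 2, and the immediate early median is below 0 only without Villin KO 1.

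The count of 6 also depended on other libraries: it was 0 without Villin WT 1 (0.888% of all genes called), 3 without any single AhCre library (2% to 2.08%), 4 without Villin WT 2 (4.63%) and 4 without Villin WT 3 (8.66%). Without Villin WT 1 the log2 fold changes were 2.23 for Fos and 2.06 for Dusp6 (edgeR, adjusted p = 0.05002 for both). They were 3.55 for Hspa1a (0.0519), 1.24 for Klf6 (0.0751), 1.11 for Btg2 (0.0832) and 1.65 for Atf3 (0.126). Limma-voom called 2 members (Fos and Dusp6) and 0.849% of all genes, and a fit of the Villin libraries alone called the same 2 and 1.89%. With DESeq2 size factors the same 6 members were called, while the share of higher calls over all genes moved from 53.6% (541 of 1009) to 64.5% (704 of 1092) and the median of all genes from -0.18 to -0.08.

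Several sets of cell type markers also differed between Villin WT and Villin KO. In Villin the summed absorptive enterocyte markers were 25507 to 40061 CPM in WT and 54827 and 85904 CPM in KO, with 13 of 20 markers called higher. The summed tuft cell markers were 128 to 251 CPM in WT and 723 and 4283 CPM in KO, with 20 of 21 called higher, and Il25 was at 0 in Villin WT 1 and Villin WT 3. Of 12 crypt base stem cell markers 3 were called lower. Stromal, muscle and endothelial markers summed to 37.96 to 240 CPM in WT and 238 and 270 CPM in KO, with 2 of 15 tested called higher, and 2 or 3 of the 20 listed were at 0 in each Villin WT library and in Villin KO 2. Leukocyte markers summed to 622 to 4257 CPM in WT and 617 and 3448 CPM in KO, with 0 of 22 called by edgeR (4 at an unadjusted p under 0.05) and none at 0. The part of these markers in the immediate early and heat-shock results was not tested. In such bulk libraries, more cells of a type and more messenger per cell cannot be told apart. The 2 libraries lowest in leukocyte markers were Villin KO 1 and Villin WT 2, and with both left out 2 members were called, Fos higher and Ier5 lower, and 1.9% of all genes. Without Villin KO 1 alone, the median log2 fold change was 0.94 over the 20 enterocyte markers, in place of 1.48 with all libraries. It was 2.1 over the 21 tuft cell markers, in place of 4.07, and -0.75 over the 12 stem cell markers, in place of -0.85. Over the 19 stromal markers tested in that fit it was 1.54, in place of 1.26 over the 15 tested with all libraries. Over the 22 leukocyte markers it was 1.28, in place of 0.55. The median over all genes tested was then -0.23.

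**Figure D4:**
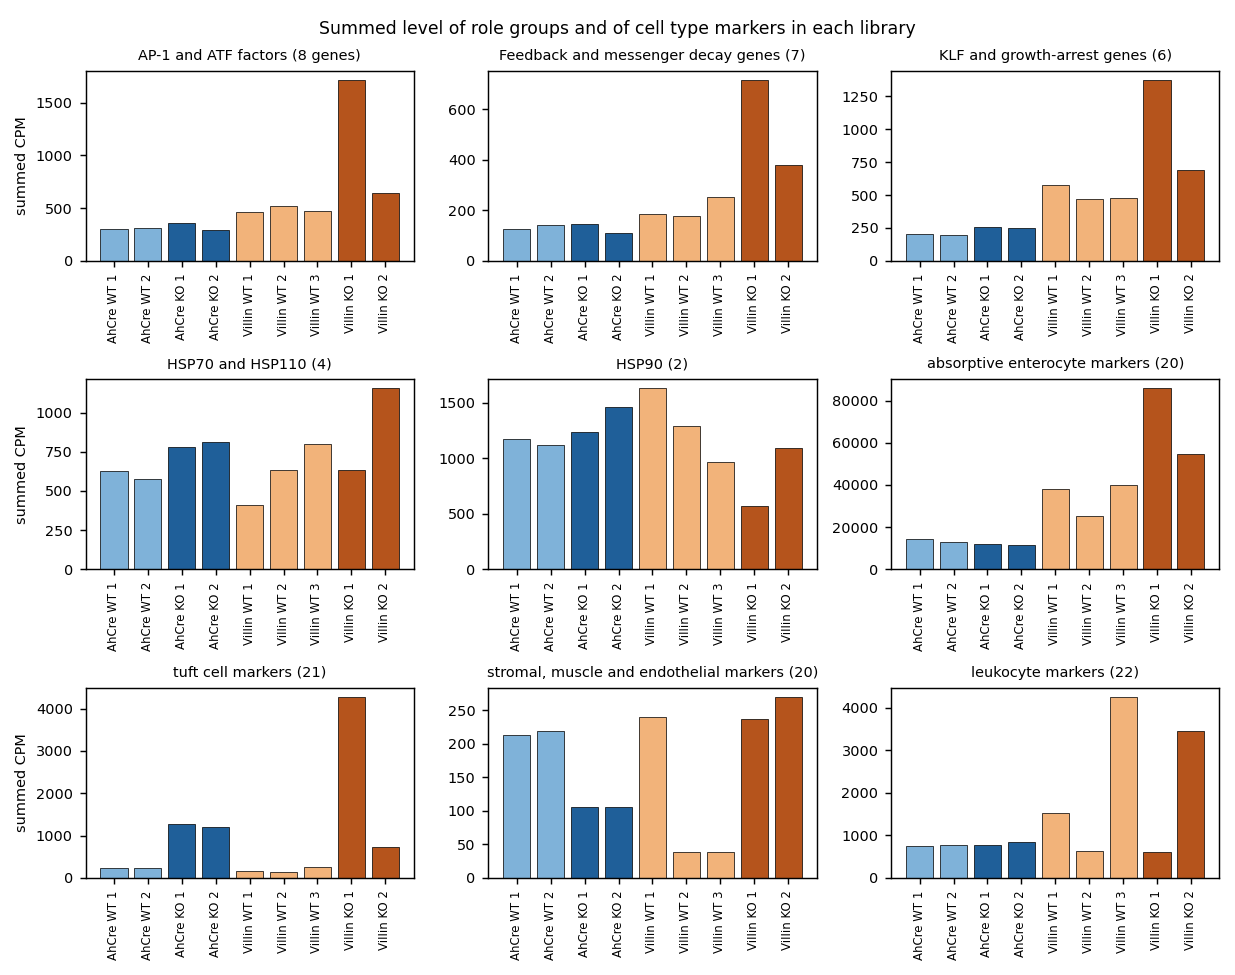
Summed CPM per library for 5 role groups of the list and for 4 sets of cell type markers, each bar a library (linear axes from 0, each panel with its own scale). The AP-1 and ATF sum is 1719 CPM in Villin KO 1 and 290 to 645 CPM in the other 8 libraries, and the enterocyte marker sum is also highest in Villin KO 1, at 85904 CPM.

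In the AhCre line the question was the same, and no member was called by the edgeR test, where 0.00615% of all genes (1 gene) were called. At an unadjusted p under 0.05, 2 members were higher (Hspa1a and Hspa1b) and 1 lower (Fos), against 1.81% and 1.72% of all genes. The DESeq2 Wald test called 0 members and 0.154% of all genes. Limma-voom called 3 members (Fos lower, Hspa1a and Hspa1b higher) and 5.61% of all genes. A fit of the 4 AhCre libraries alone, which sets its spread from these close replicates, called 6 members and 6.43% of all genes. The members were Fos (-0.95, adjusted p = 0.00205) and Atf3 (-0.96, 0.0182) lower, and Hspa1a (1.63, 0.0257), Hspa1b (1.58, 0.0117), Hsph1 (0.59, 0.0334) and Klf4 (0.63, 0.0360) higher.

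Heat-shock members were mostly higher in AhCre KO. Both KO libraries were above both WT libraries for 9 of the 13 and below them for 0, against 23.4% and 25.1% of all genes, and 12 of 13 had a log2 fold change above 0, against 49.5% of all genes. The median was 0.36, against -0.0048 over all genes, and the sizes were modest. Hspa1a had 14 and 8 counts in AhCre WT and 29 and 27 in AhCre KO, a 3.08-fold higher scaled level (95% interval 1.85 to 5.29, for counting error alone). Hspa1b had 17 and 17 counts in AhCre WT and 47 and 37 in AhCre KO. Summed, the pair was at 2.00 and 1.86 CPM in AhCre WT and at 6.14 and 5.55 CPM in AhCre KO, with a ratio of 3.02 (2.20 to 4.20) and a log2 fold change of 1.59 (adjusted p = 1.0).

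None of the abundant chaperones was called in AhCre. Hsph1 was at 59.0 and 58.3 CPM in AhCre WT and at 92.0 and 82.1 CPM in AhCre KO, a log2 fold change of 0.57 (SE 0.41). Hspa8 was at 567 and 514 CPM in AhCre WT and at 684 and 723 CPM in AhCre KO (0.38, SE 0.40). Dnaja1 (82.6 and 70.2 against 92.6 and 112 CPM) and Dnajb1 (54.0 and 55.1 against 72.0 and 63.5 CPM) had log2 fold changes of 0.42 and 0.31. For these 4 genes the groups did not overlap, yet the 95% intervals of all 4 fold changes included 0. Hsp90ab1 (990 and 961 against 1058 and 1225 CPM) and Hspe1 (222 and 251 against 269 and 337 CPM) were separated too, at 0.23 and 0.36. Hsp90aa1 (187 and 161 against 174 and 233 CPM) and Hspd1 (409 and 363 against 374 and 403 CPM) overlapped between WT and KO, and Hsf1 itself, the regulator, was at -0.06.

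Immediate early members showed no common direction in AhCre, with a median of 0.0034 on the log2 scale. Of the 23 tested, 8 were separated higher and 6 separated lower, against 23.4% and 25.1% of all genes. Fos was at 48.9 and 55.3 CPM in AhCre WT and at 26.03 and 27.2 CPM in AhCre KO (-0.97, SE 0.41, adjusted p = 1.0). Atf3 was at 10.5 and 12.1 CPM in AhCre WT and at 5.09 and 6.33 CPM in AhCre KO (-0.98, SE 0.55, adjusted p = 1.0). For both, replicates were close and the KO libraries were the lower ones. Egr1 was at 8.85 and 10.7 against 8.49 and 7.37 CPM (-0.30) and Zfp36 at 35.8 and 43.9 against 32.4 and 27.3 CPM (-0.42). In the other direction, Klf6 was at 101 and 98.4 CPM in AhCre WT and at 141 and 126 CPM in AhCre KO (0.42), Klf4 at 24.9 and 25.1 against 40.3 and 36.3 CPM (0.61), Dusp6 at 21.8 and 24.2 against 32.1 and 29.6 CPM (0.42) and Btg2 at 59.5 and 54.0 against 62.3 and 72.7 CPM (0.25).

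Marker levels also differed within AhCre. The tuft cell sum was 231 and 240 CPM in AhCre WT and 1267 and 1214 CPM in AhCre KO, the enterocyte sum 14617 and 13144 against 12038 and 11627 CPM, and the stromal sum 213 and 219 against 105 CPM in both KO libraries. The leukocyte sum was 741 and 779 CPM in AhCre WT and 775 and 834 CPM in AhCre KO. No enterocyte, tuft, stromal or leukocyte marker was at 0 in an AhCre library. Their part in the member results was not tested.

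The drivers were compared directly by the difference of their KO effects, AhCre minus Villin. Pcgf6 itself had a log2 fold change of -0.89 in AhCre and -1.99 in Villin. No member was called by edgeR, where 0.0738% of all genes were called. At an unadjusted p under 0.05, 5 members were lower (Fos, Atf3, Dusp6, Zfp36 and Hspa1a) and 0 higher, against 6.32% and 9.55% of all genes. Hspa1a had a difference of -2.41 (edgeR, adjusted p = 0.297), and Hspa1a and Hspa1b summed of -0.91 (adjusted p = 0.621). Fos had a difference of -3.15 (SE 0.55, adjusted p = 0.0800) and Atf3 of -2.83 (SE 0.74, adjusted p = 0.146). These were also the 2 members whose KO libraries lay above all WT libraries in Villin and below them in AhCre, an arrangement seen in 5.03% of all genes. The difference passed for both genes by DESeq2 and by limma-voom (2 members each), where 0.83% and 0.886% of all genes were called. Without Villin KO 1 the difference was likewise called for no member (4 at an unadjusted p under 0.05), and the median over immediate early members was 0.07 in place of -0.55.

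Averaged over both drivers, 1 member was called, Hspa1a, where 1.17% of all genes were called. Its mean log2 fold change was 2.82 (SE 0.51, adjusted p = 0.0210), and for Hspa1a and Hspa1b summed it was 2.05 (adjusted p = 0.0421; 1.74 and 0.126 without Villin KO 1). Hspa1a kept its call without Villin WT 3 or Villin KO 2 and lost it without any of the other 7 libraries, with log2 fold changes from 2.59 to 3.06 and adjusted p up to 0.189. Dusp6 was at 1.39 (SE 0.32, adjusted p = 0.064), Klf6 at 0.80, Btg2 at 0.72, Dnaja1 at 0.62 and Dnajb1 at 0.54. These 5 and Hspa1a were the 6 members whose KO libraries lay above the WT libraries in both drivers, against 3.42% of all genes. Egr1 was the 1 member that lay below in both, against 4.12%.

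The WT groups were compared to ask how the members differ between the lines before any loss of Pcgf6. AhCre WT and Villin WT differ in driver, inducing agent and sequencing depth together, and these cannot be told apart. Between them 7 of 36 members were called, 3 higher and 4 lower in AhCre WT, where 7.58% of all genes were called (4.04% higher, 3.53% lower). The medians were -0.82 for immediate early members, 0.02 for heat-shock members and -0.07 for all genes. AhCre WT libraries lay beyond all Villin WT libraries for 9 members upward and 16 downward, against 26.5% and 23.8% of all genes. The Villin WT libraries are the same ones that enter the Villin KO comparison, so these results are not independent of it.

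Lower in AhCre WT were Klf4, Jund, Gadd45a and Klf6. Klf4 was at 24.9 and 25.1 CPM in AhCre WT and at 158, 93.0 and 105 CPM in Villin WT (-2.24, SE 0.47, adjusted p = 0.0219). Klf6 was at 101 and 98.4 against 289, 250 and 265 CPM (-1.43, SE 0.33, adjusted p = 0.0291). For both KLF genes the closest libraries of the 2 groups were still far apart. Jund was at 7.43 and 9.02 against 52.7, 30.5 and 16.2 CPM (-2.01, SE 0.55, adjusted p = 0.0468), and 52.58% of its exon length is shared with the antisense gene Gm11175, which had 0 counts in all 9 libraries. Gadd45a was at 8.07 and 7.68 against 38.6, 19.1 and 16.2 CPM (-1.64, SE 0.46, adjusted p = 0.0476), and 19.1% of its exon length overlaps an antisense gene.

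Higher in AhCre WT were Ier2, Hsph1 and Hsf1. Ier2 was at 41.6 and 46.6 CPM in AhCre WT and at 20.5, 16.3 and 13.1 CPM in Villin WT (1.41, SE 0.33, adjusted p = 0.0309). Hsph1 was at 59.0 and 58.3 against 17.8, 24.8 and 20.8 CPM (1.47, SE 0.38, adjusted p = 0.0380), and Hsf1 at 46.4 and 67.5 against 13.8, 32.6 and 19.1 CPM (1.38, SE 0.38, adjusted p = 0.0466). None of these 3 overlapped between the groups. Among members not called between the WT groups, Fos had a log2 fold change of -0.92 (adjusted p = 0.13), Dusp6 of -1.59 (0.053), Atf3 of -1.15 (0.16) and Nr4a1 of 1.89 (0.071). Hspa1a was at 2.66 (adjusted p = 0.069), with 22 counts over AhCre WT against 2 over Villin WT, a ratio of 7.06 (95% interval 1.74 to 61.9). For Hspa1a and Hspa1b summed, the log2 fold change was 1.41 (edgeR, adjusted p = 0.151). The ratio of summed counts was 2.77 (1.49 to 5.51). Of the abundant chaperones, Hsp90ab1, Hsp90aa1 and Hspa8 had estimates of -0.21, 0.02 and -0.13. Their 95% intervals were -0.99 to 0.58, -0.74 to 0.77 and -0.93 to 0.66. The chaperonin genes had larger estimates, -0.70 for Hspe1 (-1.77 to 0.38) and 0.58 for Hspd1 (-0.30 to 1.46), and neither was called.

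The wild-type count was 0 if AhCre WT 1 (0.169% of all genes called in place of 7.58%), AhCre WT 2 (0.0466%) or Villin WT 1 (1.02%) was dropped. It was 1 (Klf4) without AhCre KO 1 or AhCre KO 2 (2.01% and 2.13% of all genes) and 4 without Villin WT 3 (3.67%). Dropping Villin KO 1 gave 10 (12.6%) and dropping Villin KO 2 gave 11 (13.2%). Enterocyte markers summed to 14617 and 13144 CPM in AhCre WT against 25507 to 40061 CPM in Villin WT, with 6 of 20 called lower, stromal markers to 213 and 219 against 37.96 to 240 CPM, with 3 of 15 tested called higher, and stem cell markers to 2723 and 2185 against 1159 to 2671 CPM, with 3 of 12 called higher. Leukocyte markers summed to 741 and 779 against 622 to 4257 CPM, with 0 of 22 called by edgeR (2 at an unadjusted p under 0.05). Their part in these differences was not tested.

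Other genes of both pathways, from lists of 42 and 46 symbols drawn up beside the members, were read in the same fits. Of 34 tested other immediate early genes, 6 rose and 0 fell in Villin KO, with a median log2 fold change of 0.52. They included Plk2, a stress-responsive kinase (3.55, adjusted p = 0.00773), the clock gene Per1 (2.57, 0.00773), the nuclear factor Csrnp1 (2.33, 0.0138) and the kinase Sgk1 (2.19, 0.0313). Plk2 was at 3.59 to 5.003 CPM in Villin WT and at 82.6 and 17.4 CPM in Villin KO, and at 6.91 and 6.19 against 19.6 and 17.2 CPM in AhCre. It was the gene of this list called on average over both drivers (2.52, adjusted p = 0.00952). Per1 was higher in both Villin KO libraries (36.1 and 21.9 against 3.95 to 6.74 CPM). Without Villin KO 1, 3 of 35 tested genes of the list were called, Plk2 (2.05, adjusted p = 0.0490), Per1 (2.19, 0.0493) and Csrnp1 (2.48, 0.0498), while Sgk1 was at 2.28 (0.0914). The list's median was then -0.02, and Plk2 was still called on average over both drivers (1.78, adjusted p = 0.00719).

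Of 43 tested other heat-shock and chaperone genes, 1 rose and 0 fell in Villin KO, with a median of 0.01. It was Serpinh1, the collagen chaperone (2.84, adjusted p = 0.00903), at 1.44, 1.41 and 0.58 CPM in Villin WT and at 9.42 and 7.40 CPM in Villin KO. Without Villin KO 1 it was again the 1 gene called of 43 (2.67, adjusted p = 0.0493), and the list's median was 0.29. The collagen genes Col1a1 and Col3a1 were the 2 stromal markers called higher in the same comparison, and without Villin KO 1 Col1a1 was called (3.50, adjusted p = 0.0379) and Col3a1 was not (2.96, 0.0636). In AhCre no gene of either list was called by edgeR (3 immediate early and 0 heat-shock genes at an unadjusted p under 0.05). Of the 43 other heat-shock genes, 31 had a log2 fold change above 0 there, against 49.5% of all genes. Their median was 0.13, against 0.36 for the heat-shock members. Both AhCre KO libraries lay above both WT libraries for 16 of them and below for 4, against 23.4% and 25.1% of all genes. Between the WT groups, Zfp36l2 (2.17) and Per1 (1.76) were higher and Socs3 (-1.86) and Pim1 (-1.65) lower in AhCre WT among immediate early genes. Among heat-shock genes Serpinh1 (3.39) and Hspa4 (1.59) were higher and Hspa12a (-1.47) and the polyubiquitin gene Ubb (-1.40) lower.

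Counting limits apply to some members. Of the 38, 13 share exon positions with another gene, and the strand setting of the counting is not given in the sources used here, so such reads may be assigned to either. Hspa1a shares 19.01% of its exon length with Gm20481, which had 0 counts throughout. Rows for processed copies existed for Hspd1 (5 rows, 2 to 93 counts per library), Hspe1 (6 rows, 4 to 29 counts) and Dnaja1 (1 row, 0 to 2 counts), and reads of these genes may be split among them.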

How the data were processed

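Crypt RNA was made into Smart-seq2 libraries from 2 ng of RNA each, per the labels' protocols. The authors deposited raw read counts per gene for the 9 libraries. The tools named in the submitters' processing notes are STAR 2.7, featureCounts and DESeq2 1.20, with the builds mm10 and GRCm38. Their roles, the gene annotation and the strand setting of the counting were not given. Each of the 55341 row names matched a GENCODE M21 gene name, which gave positions and exon lengths. Promoters came from a RefSeq table (GRCm38.p6).

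Groups followed the titles. In R 4.3.3, edgeR 4.0.16 fitted 1 mean per group to all 9 libraries (TMM, filterByExpr, quasi-likelihood test, 5 residual degrees of freedom, adjusted p under 0.05 over all 16250 genes tested). The 5 contrasts were KO against WT in each driver, their mean, their difference, and the WT groups. CPM are counts scaled to a common TMM-adjusted library size, and intervals from counts cover counting error only. Values by library were given for members called in any contrast and for the 2 highest by mean CPM in each of 8 role groups. Not all of them were given in every group, and Nr4a1 was given partly as a range. Of the other lists up to 4 called genes per contrast were named. Values of Hspa1b, Fosl2, Jun, Ier5, Plk2 and Per1 by library were added after their values were seen.

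Alternatives were DESeq2 size factors, no filter, a minimum of 1 CPM in 4 or more libraries, the Wald test of DESeq2 1.42.0, limma 3.58.1 voom with sample weights, fits of the compared groups alone, a replicate block and each library left out, where a group of 1 is assumed to vary like the others. Alternatives chosen after seeing the data were crossed AhCre numbers in the block, the fit without Villin WT 2 and Villin KO 1 together, summing Hspa1a and Hspa1b, and reading that sum, the other gene lists and the markers without Villin KO 1. The members and lists were chosen with earlier results of these data known. The fit was tested on simulated data.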

Additional observations from a re-analysis of the deposited data

Results flagged for a closer look

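In 2 of 36 tested members, Fos and Atf3, KO lay above WT in Villin and below WT in AhCre. The share over all genes was 5.03%. Both were flagged for this arrangement, so the tests below use the values that picked them. For Fos the edgeR test of the difference between the drivers did not pass. Its KO effect in AhCre minus that in Villin was -3.15 on the log2 scale (edgeR, adjusted p = 0.0800, the libraries of Villin KO all above and those of AhCre KO all below their WT libraries), and the test of the difference passed without a low-count filter (-3.06, adjusted p = 2.2e-05), by DESeq2 (-3.29, 2.0e-05), by limma-voom (-2.95, 0.00555) and with Villin WT 2 and Villin KO 1 both left out (-2.33, 0.0342). It did not pass with DESeq2 size factors (-3.28, 0.0560), with a filter at 1 CPM (-3.14, 0.0763), with a replicate block (-2.998, 0.1805) or with the AhCre numbers crossed in that block (-2.998, 0.217). Of the 9 fits that leave out 1 library it passed without Villin KO 2 (-3.67, 0.00643) and failed in the other 8 (-3.23 to -2.29, adjusted p from 0.0636 to 0.513).

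Atf3 had the same arrangement, with a difference of -2.83 that did not pass either (edgeR, adjusted p = 0.146). It passed without a low-count filter (-2.77, 0.00162), by DESeq2 (-2.98, 0.00877) and by limma-voom (-2.97, 0.0223), and it did not pass with Villin WT 2 and Villin KO 1 both left out (-2.14, 0.119), with DESeq2 size factors (-2.96, 0.132), with a filter at 1 CPM (-2.82, 0.144), with a replicate block (-3.58, 0.119) or with that block crossed (-3.57, 0.217). Leaving out 1 library, it passed without Villin WT 3 (-3.60, 0.0459) and failed in the other 8 fits (-3.17 to -2.38, adjusted p from 0.0525 to 0.607).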

How the results depend on the processing

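Of 257 recomputed values of called members, 155 kept their call, 102 lost it and 0 changed sign; of 3030 uncalled values 71 became called and 194 changed sign while uncalled in both. The number of members called in Villin (6) was 2 by limma-voom, 2 in the groups alone and 2 with Villin WT 2 and Villin KO 1 both left out. The Villin count was 9 by DESeq2 (3.73% of all genes called, against 6.21%), with Dnaja1 and Dnajb1 added higher and Ier5 added lower. Without a filter it was 7 (3.4%), with Ier5 added lower. In AhCre (0) the number was 3 by voom (5.61% of all genes) and 6 in the groups alone (6.43%), against 0.00615%. Between WT groups (7) it was 13 by voom (23.8% of all genes called) and 18 with both libraries out (29.8%), against 7.58%. For the mean effect (1) it was 2 without a filter (1.15% of all genes called), 3 by DESeq2 (0.928%) and 2 by voom (1.64%), against 1.17%. For the difference (0) it was 2 without a filter (0.726% of all genes called), 2 by DESeq2 (0.83%) and 2 by voom (0.886%), against 0.0738%. The cause of these changes was not tested. Leaving out each library in turn gave 0 to 13 members in Villin, 0 in AhCre, 0 to 11 between WT groups, 0 to 9 for the mean and 0 to 1 for the difference. Labels do not tie replicate numbers to shared animals, and deviations of same-numbered libraries correlated at -0.11 in AhCre and 0.06 and -0.22 in Villin. With a replicate block the counts were 3 in Villin (1.85% of all genes called), 0 in AhCre (0.00615%) and 3 between WT groups (2.98%). They were 1 for the mean (Dusp6 in place of Hspa1a, 0.843%) and 0 for the difference (0%). With the AhCre numbers crossed in the replicate block they were 1 in Villin (0.283%), 0 in AhCre (0.00615%), 0 for the mean (0.295%) and 0 for the difference (0%). Depth limits Hspa1a, Hspa1b, Egr2, Egr3, Klf2 and Hspb1, whose levels lie within a few counts of the floor in some libraries.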
